A study of Rattus norvegicus with 18 samples.

Results

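Collagens, laminins and integrins were followed in the lungs of male Sprague-Dawley rats exposed nose-only to mainstream smoke of the reference cigarette 2R4F or to a sham treatment. The members were all genes whose single annotated symbol has the form of a collagen chain, a laminin chain or a name starting with Itga or Itgb. They came to 72 of the 13807 genes with a symbol on the arrays: 37 collagens, 10 laminins and 25 integrin-named genes, with 106 of 31042 probe sets. Exposure ran for 13 weeks, 5 days a week and 2 h a day, at 0 (sham), 300 or 600 µg of total particulate matter per litre of smoke, and RNA was taken from lungs after 2, 6 or 20 h of recovery from the final session. The labels give no age of the animals and no number of animals per array. Each of the 9 conditions was measured on 1 array of each of 2 Affymetrix types, A and B, 18 arrays in all. An exposure was therefore compared over its 3 recovery times (n = 3 arrays) and a time over its 3 exposures, so that p-values rest on the spread among these few arrays alone, whose number limits the precision. For the 4 smoke samples at 20 h, 1 label field reads sham while title and source name give the smoke exposure, which was followed here.

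Collagens are trimeric proteins of the extracellular matrix. Fibrillar types give the lung its tensile strength, type IV forms the network of basement membranes, and type VI forms beaded filaments between cells and fibrils. Laminins are trimers of an alpha, a beta and a gamma chain that lie beside type IV collagen in basement membranes, and integrins are the alpha and beta subunit pairs by which cells bind collagens, laminins and, on leukocytes, other cells.

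Signals are MAS5 intensities on a linear scale, and a level was compared within a probe set. The exception is the lists of cell type markers, which are also given as sums over their genes on both array types. In these sums the brightest genes weigh most, and no share over all probe sets stands beside them. Differences are on the log2(signal + 50) scale, which understates changes of dim genes. Each gene is given by its probe set with the highest mean signal. A probe set was tested where it reached the 40th percentile of its array type (a signal of 183.8 for A and 238.7 for B) on 3 or more arrays, which 28 of 37 collagens, 9 of 10 laminins and 20 of 25 integrin-named genes did. The genes that did not were Col2a1, Col5a3, Col7a1, Col9a1, Col9a3, Col10a1, Col11a2, Col19a1, Col27a1, Lama1, Itgad, Itgae, Itgam, Itga11 and Itgb1bp2. Of the integrin-named genes, Itgb1bp1, Itgb1bp2, Itgb3bp and Itgbl1 match by symbol but encode no integrin subunit. A gene was called at a Benjamini-Hochberg adjusted p under 0.05 over all 19638 tested probe sets. Genes of alveolar type 2 cells, which make surfactant and mark lung tissue, were present, and all 7 of their list passed the same filter. The type B arrays of sham and of 300 µg/l at 2 h deviated in parallel from the mean of all type B arrays (r = 0.561 over probe sets). None of the 35 other type B pairs exceeded 0.119. Which of these arrays was unusual was not tested. For several type B genes the values without the sham array stand beside the main ones. The type B array of 300 µg/l at 2 h was not left out alone.

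Collagens were mostly lower in smoke-exposed lungs, and 1 of them passed the test. Col5a2, which encodes a chain of type V collagen that co-assembles with type I in fibrils, was lower after 600 µg/l by 0.57 (SE 0.10, adjusted p = 0.0364). At 600 µg/l, 23 of the 28 tested collagens lay below sham, with a median difference of -0.19, against 51.84% of all tested probe sets and a median of -0.01. At 300 µg/l, which shares its sham arrays with the other comparison, 21 of 28 lay below sham, with a median of -0.11, against 50.6% and a median of 0.00 of all probe sets. In whole-lung RNA, fewer cells of a type and less RNA per cell cannot be told apart.

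The Col5a2 signal was 2740.9, 3461.3 and 2632.2 in the sham arrays at 2, 6 and 20 h. It was 2064.1, 2101.8 and 2091.1 after 300 µg/l. It was 1767.4, 1982.1 and 2103.5 after 600 µg/l. All 6 smoke arrays lay below all 3 sham arrays, and the sham array at 6 h was the highest of the 9. The share of all probe sets with all 6 smoke arrays beyond all 3 sham arrays was not taken, for this or any later gene. The difference at 300 µg/l was -0.48 (SE 0.10, adjusted p = 0.218), and that between 600 and 300 µg/l was -0.10 (SE 0.10, adjusted p = 0.997). A dimmer Col5a2 probe set gave 2135.7, 1873.2 and 1854.9 in sham and 1236.3, 1396.2 and 1512 after 600 µg/l, again without overlap, with a difference of -0.49 (SE 0.10, adjusted p = 0.0725). The call was lost in 9 of 21 alternative analyses, and over all 21 the difference lay between -0.70 and -0.46. It was lost without the sham array at 2 h (adjusted p = 0.124) or 6 h (0.131), without the 300 µg/l array at 2 h (0.0552) or 20 h (0.0528), and without the 600 µg/l array at 2 h (0.172), 6 h (0.159) or 20 h (0.0517).

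The promoter of Col5a2 is shown because it is the 1 called member. Those of Col4a1 and Col4a2 are shown because these members start back to back with overlapping windows. Col4a6 and Col4a5 also start back to back, but 914 bases lie between their windows. Of the 72 members, 56 have a promoter window in the RefSeq table (build GRCr8), and the sequences are the 250 bases before the annotated start, 5′ to 3′ on the gene's strand. Capitals mark 3 motifs on either strand, namely the CCAAT box (letters CCAAT), the GC box (letters GGGCGG) and the TATA box (letters TATAAA). Col5a2 lies at chr9:55090152-55090401 on the minus strand, Col4a1 at chr16:84885347-84885596 on the plus strand and Col4a2 at chr16:84885521-84885770 on the minus strand.
Col5a2: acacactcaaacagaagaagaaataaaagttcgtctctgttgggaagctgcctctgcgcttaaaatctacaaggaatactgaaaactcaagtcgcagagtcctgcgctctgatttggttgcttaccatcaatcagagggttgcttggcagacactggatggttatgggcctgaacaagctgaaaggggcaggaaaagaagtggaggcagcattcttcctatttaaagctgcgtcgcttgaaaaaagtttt
Col4a1: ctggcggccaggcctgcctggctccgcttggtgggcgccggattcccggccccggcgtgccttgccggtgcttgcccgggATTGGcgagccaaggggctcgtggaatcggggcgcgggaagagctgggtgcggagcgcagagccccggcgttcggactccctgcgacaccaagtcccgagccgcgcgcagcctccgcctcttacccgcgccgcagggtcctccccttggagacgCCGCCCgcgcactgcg
Col4a2: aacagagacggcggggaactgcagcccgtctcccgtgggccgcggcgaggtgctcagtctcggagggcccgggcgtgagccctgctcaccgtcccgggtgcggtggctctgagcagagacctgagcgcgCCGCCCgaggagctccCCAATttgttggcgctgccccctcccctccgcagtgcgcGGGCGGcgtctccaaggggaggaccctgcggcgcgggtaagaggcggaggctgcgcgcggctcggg

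The Col5a2 window holds none of the 3 motifs as spelled. The Col4a1 and Col4a2 windows share 76 bases, which are all that lies between their starts, and each holds 1 CCAAT box. The GC box stood in 16 of 29 collagen windows (55.2%), in 5 of 9 laminin windows (55.6%), in 8 of 18 windows of integrin-named genes (44.4%) and in 32.4% of all 27457 windows of this length. The CCAAT box stood in 7 of 29, 2 of 9 and 3 of 18 against 34.3% of all, and the TATA box in 4 of 29, 1 of 9 and 1 of 18 against 13.1%. These are matches of letters, and the arrays hold no measurement of binding.

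Among the other fibrillar collagens, Col1a1, Col1a2 and Col3a1, the main fibril-forming chains of lung, were lower at both exposures without passing the test. Of the 7 fibrillar chains tested, 6 lay below sham at 600 µg/l (median -0.24), and the exception was Col24a1 (0.15, and 0.18 without the type B array of sham at 2 h). Col1a1 read 1571.3, 2333 and 2063.8 in sham at 2, 6 and 20 h, 1172.3, 1599.3 and 1797 after 300 µg/l and 1456.7, 1522.8 and 1665 after 600 µg/l. Its groups overlapped through the sham array at 2 h, and within each time both smoke arrays lay below sham. The differences were -0.34 at 600 µg/l (SE 0.11, adjusted p = 0.276) and -0.38 at 300 µg/l (SE 0.11, adjusted p = 0.608), and its dimmer probe set gave -0.47 and -0.43.

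Col1a2 read 3229.8, 3401 and 2931.4 in sham, 2894.6, 2976 and 2517.6 after 300 µg/l and 2877.1, 2517.4 and 2741 after 600 µg/l. All 3 arrays at 600 µg/l lay below all sham arrays (difference -0.23, SE 0.08, adjusted p = 0.365), while 1 array at 300 µg/l overlapped with sham. Col3a1, the type III chain, read 5963.3, 6610.3 and 6003.3 in sham, 4867.6, 5424.9 and 5259.9 after 300 µg/l and 4913.9, 4888.1 and 6000.5 after 600 µg/l. Here the 300 µg/l arrays lay below all sham arrays, and the 600 µg/l array at 20 h had reached the sham level of that time. The fitted differences of Col3a1 were -0.24 at 600 µg/l (adjusted p = 0.331) and -0.25 at 300 µg/l (adjusted p = 0.714).

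**Figure D1:**
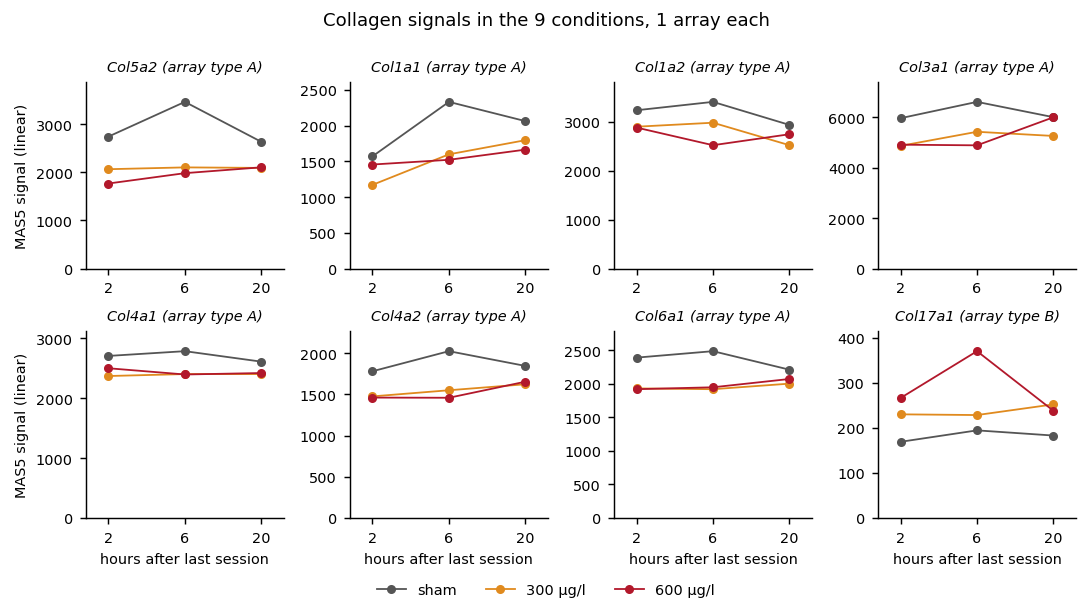
MAS5 signal (linear axis from 0) of 8 collagens against hours after the last session, 1 point per array, for sham, 300 and 600 µg/l; lines join the times of an exposure. For Col5a2, Col4a1, Col4a2 and Col6a1 all 6 smoke arrays lie below all 3 sham arrays. For Col17a1, of which no sham array reached the filter, all 6 lie above. The share of all probe sets with all 6 smoke arrays beyond all 3 sham arrays was not taken.

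All 5 tested type IV chains, the network formers of basement membranes, lay below sham at 600 µg/l (median -0.26) and at 300 µg/l (median -0.26), and none passed the test. The count and both medians include Col4a4, which reached the filter only in sham arrays, so its direction is no support. The medians without it were not taken. Col4a1 and Col4a2, whose products assemble into the common type IV trimer, were bright and had little spread. Col4a1 read 2707, 2786.3 and 2611.3 in sham, 2371.3, 2404 and 2404.3 after 300 µg/l and 2501, 2396.9 and 2421.2 after 600 µg/l. Col4a2 read 1779.6, 2023.2 and 1844.3 in sham, 1474.8, 1549.2 and 1621.9 after 300 µg/l and 1460.3, 1458.1 and 1652.9 after 600 µg/l. For both genes the 6 smoke arrays lay below the 3 sham arrays. The differences at 600 and 300 µg/l were -0.14 and -0.17 for Col4a1 (SE 0.07, adjusted p = 0.503 and 0.821) and -0.30 and -0.27 for Col4a2 (SE 0.08, adjusted p = 0.204 and 0.657).

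Col4a5, a chain of another type IV trimer, read 2307.8, 1955.8 and 2112.4 in sham and 1757.7, 1693.1 and 1836.6 after 600 µg/l, with no overlap and a difference of -0.26 (SE 0.08, adjusted p = 0.256). Col4a4 had the lowest fitted difference of the tested collagens, -0.59 at 600 µg/l (SE 0.13, adjusted p = 0.113), but it was dim. It read 209.2, 195.2 and 188.2 in sham, 141.6, 152.5 and 155.5 after 300 µg/l and 116, 100.2 and 129.7 after 600 µg/l. Only its sham arrays reached the filter, so that it could enter the test only with higher values in sham. Col4a6 read 272.3, 459.4 and 449.2 in sham and 297.1, 348.7 and 428 after 600 µg/l, and its groups overlapped.

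The 3 type VI chains also lay below sham at both exposures (median -0.25 at 600 and -0.11 at 300 µg/l). Col6a1 read 2391.2, 2487.4 and 2211.5 in sham, 1932.1, 1920.5 and 2003.4 after 300 µg/l and 1920.7, 1948.9 and 2072.6 after 600 µg/l. Its smoke arrays lay below all sham arrays, with differences of -0.25 and -0.27 at 600 and 300 µg/l (SE 0.08, adjusted p = 0.271 and 0.63). For Col6a2 the 600 µg/l arrays lay below all sham arrays and the 300 µg/l arrays overlapped with them (-0.26 at 600 µg/l, SE 0.12, adjusted p = 0.487). The 600 µg/l difference of Col6a3 was -0.18 (SE 0.08, adjusted p = 0.486).

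Of the 13 remaining tested collagens, 9 lay below and 4 above sham at 600 µg/l (median -0.04), and 7 below and 6 above at 300 µg/l (median -0.03). Of the 5 fibril-associated chains, 3 lay above sham at 600 µg/l. Among these, Col9a2 read 149.6, 137.7 and 187.9 in sham and 201.6, 213.3 and 246.8 after 600 µg/l, dim values without overlap (0.38, SE 0.12, adjusted p = 0.294), and Col16a1 gave 0.25 (adjusted p = 0.483). Col17a1, a transmembrane collagen of the hemidesmosomes of epithelial cells, read 169.1, 194.5 and 183 in sham, 230.1, 228.5 and 252.2 after 300 µg/l and 266.4, 370.3 and 237.9 after 600 µg/l. All 6 smoke arrays lay above sham (0.54 at 600 µg/l, SE 0.21, adjusted p = 0.407, and 0.31 at 300 µg/l, adjusted p = 0.986), yet no sham array reached the filter. Without the type B array of sham at 2 h the Col17a1 differences were 0.53 and 0.30, and that of Col16a1 at 600 µg/l was 0.34. Transmembrane Col13a1 gave -0.23 (SE 0.09, adjusted p = 0.427), and Col18a1, the precursor of endostatin, gave -0.05. Col15a1 gave -0.20 (SE 0.20) on type B, and -0.49 (SE 0.12, adjusted p = 0.138) with its dimmer probe set on type A.

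**Figure D2:**
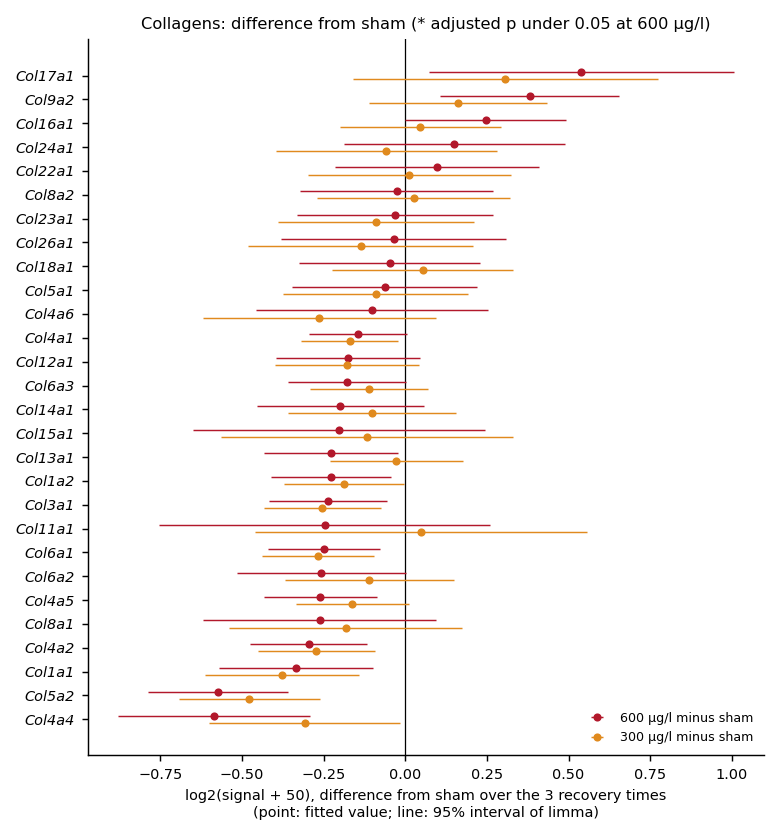
Fitted differences from sham (points) with 95% intervals (lines) for the 28 tested collagens at 600 and 300 µg/l, on the log2(signal + 50) scale, ordered by the 600 µg/l value. Of the 28, 23 lie below 0 at 600 µg/l, and Col5a2, which carries no mark in the figure, is the one with an adjusted p under 0.05.

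Over the tested collagens, 1 of 28 was called at 600 µg/l, against 0.514% of all tested probe sets (0.0866% for calls below sham). None was called at 300 µg/l (0.0458% of all) or for any difference among exposures by the moderated F test (0.214% of all). At an unadjusted p under 0.05, 9 of 28 were lower and 2 higher at 600 µg/l, against 5.09% and 5.25% of all probe sets (10.3% in both directions). At 300 µg/l 8 were lower and none higher, against 2.66% and 2.86% (5.53% in both), and by the F test 9 passed, against 7.75%. All 3 arrays at 600 µg/l lay below all 3 sham arrays for 8 collagens (Col1a2, Col4a1, Col4a2, Col4a4, Col4a5, Col5a2, Col6a1 and Col6a2) and above for 2 (Col9a2 and Col17a1), against 7.42% and 6.98% of all probe sets. At 300 µg/l they lay below for 7 (Col3a1, Col4a1, Col4a2, Col4a4, Col4a5, Col5a2 and Col6a1) and above for Col17a1, against 4.32% and 4.12%. Col4a4 reached the filter only in sham arrays and Col17a1 only in smoke arrays, and without these 2 the counts over 26 collagens were 7 below and 1 above at 600 µg/l and 6 below and none above at 300 µg/l. Between 600 and 300 µg/l no collagen was called (0.0204% of all) and none had an unadjusted p under 0.05 (5.05% of all), which also held for laminins and integrins.

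The count below sham was also taken over other sets of collagens. Of the 28, 7 were under the filter's level in some array. Among the 21 above it in every array, a restriction chosen after the data were seen, 18 lay below sham at 600 µg/l (median -0.20) and 18 at 300 µg/l (median -0.12), against 52.1% and 50.7% of the 15996 probe sets so chosen. At an unadjusted p under 0.05, 8 of these 21 were lower at 600 µg/l and 7 at 300 µg/l, and none was higher. Col4a4 and Col17a1 are not among the 21. The share of the 15996 probe sets at that level was not taken. With no filter it was 30 of 37 at 600 and 25 of 37 at 300 µg/l. Of 9 collagens with several tested probe sets, 8 had all of them below sham at 600 µg/l, and Col5a1 was mixed. The sham array at 6 h was the highest of the 9 for 11 of 28 collagens (39.3%), against 16.5% of all probe sets, and without the 6 h sham arrays 20 of 28 lay below sham at 600 µg/l (median -0.18) and 20 at 300 µg/l (median -0.16). Without the 20 h conditions it was 23 and 20 of 28, and without the type B array of sham at 2 h it was 22 at each exposure.

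Of the marker lists of other cells, only those of macrophages and neutrophils held called genes. Over all tested probe sets, 0.514% were called at 600 µg/l and 0.0458% at 300 µg/l. Of the macrophage list, 7 of 9 genes were tested, with 5 above and 2 below sham at 600 µg/l and 4 above and 3 below at 300 µg/l. Ctsd, Cd68 and Gpnmb were called higher at both exposures, while Adgre1 gave -0.40 and Csf1r -0.11 at 600 µg/l without a call. The summed signal of its 7 genes on the arrays was 32548.5 to 34320.3 in sham, 40100.7 to 41972.2 after 300 µg/l and 43437.6 to 48547.4 after 600 µg/l. The neutrophil list, with 3 genes tested and S100a9 called higher at 600 µg/l, summed to 1347.8 to 2222.9 in sham, 3115.9 to 4146.6 after 300 µg/l and 3951.2 to 8281.7 after 600 µg/l. Most of the smoke sums came from S100a9, which read 967.8, 694.7 and 1033.4 in sham and 2976.4, 6636.4 and 5161.2 after 600 µg/l. The smoke arrays of S100a8 and Csf3r, also tested, overlapped with sham at both exposures. Fibroblast markers, from cells that make fibrillar collagen, lay below sham for 6 of 9 genes at 600 µg/l and 8 of 9 at 300 µg/l with none called, and their sums were 13470.6 to 15358.5, 12514 to 13857.7 and 13399.1 to 14689. Endothelial markers, from cells that make type IV collagen, lay below sham for 6 of 7 genes at 600 µg/l with none called, and their sums were 26473 to 30209.9, 26347.2 to 27886.8 and 25111.3 to 26448.7. Alveolar type 1 markers, from the flat cells of the gas exchange surface, lay below sham for 5 of 6 genes at 600 µg/l and all 6 at 300 µg/l with none called. Their sums were 41775 to 43021.2 in sham, 37472.8 to 41387.7 after 300 µg/l and 38007.5 to 40444.5 after 600 µg/l, without overlap between sham and smoke. All 4 NK cell markers lay below sham at 600 µg/l and 3 of 4 at 300 µg/l with none called, and their sums were 1734.1 to 1871.7, 1141.7 to 1757.8 and 1234.6 to 1399.5. Cartilage markers, which would come with tracheal or bronchial rings, summed to 589.9 to 1028.4, 756.5 to 893.7 and 658.5 to 804.5. Alveolar type 2 markers lay above sham for 6 of 7 genes at 600 µg/l and 3 of 7 at 300 µg/l. Airway epithelium markers did so for 3 of 4 and 2 of 4, and smooth muscle markers for 2 of 6 and 1 of 6, with none called. The part of these cells in the collagen values was not tested.

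Of 25 collagen-modifying enzymes, 18 were tested, and 8 of them lay below sham at 600 µg/l with a median of 0.01. Loxl1, a lysyl oxidase that starts the cross-linking of elastin and collagen, was called lower at 600 µg/l by 0.50 (SE 0.09, adjusted p = 0.0471). It was the 1 called of the 18, against 0.514% of all tested probe sets (0.0866% for calls below sham). Its call was not followed through the alternative analyses. Loxl1 read 670, 820.2 and 816.7 in sham, 433, 498.3 and 561.2 after 300 µg/l and 413.1, 579.5 and 609.9 after 600 µg/l. All smoke arrays lay below all sham arrays, and the 300 µg/l difference was -0.58 (SE 0.09, adjusted p = 0.0773). Tgm2, a transglutaminase, gave -0.29 (adjusted p = 0.125) and P4hb, a subunit of prolyl 4-hydroxylase, gave 0.24 (adjusted p = 0.172) at 600 µg/l.

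Laminins showed no call in any comparison. Of 9 tested chains, 7 lay below sham at 600 µg/l with a median of -0.03 and 5 at 300 µg/l with a median of 0.00. Without the 6 h sham arrays it was 4 of 9 (median 0.02) at 600 µg/l and 3 of 9 (median 0.07) at 300 µg/l. At 600 µg/l 1 of 9, Lamc1, had an unadjusted p under 0.05, against 10.3% of all probe sets, and in 12 of 21 alternative analyses no laminin lay above sham at that level. Lamc1, the gamma chain shared by most laminins, read 1298, 1221.9 and 1252.6 in sham, 1521, 1287.8 and 1444.9 after 300 µg/l and 1461, 1287.4 and 1547.6 after 600 µg/l. The smoke array was above the sham array of its time at all times, but at 6 h it was below the sham array of 2 h. The difference was 0.18 at 600 µg/l (SE 0.08, adjusted p = 0.477) and 0.16 at 300 µg/l (adjusted p = 0.932), and 0.03 at both with its dimmer probe set.

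Lama2, the alpha chain best known from muscle basement membranes, read 356, 479.1 and 396.5 in sham, 405.7, 324.7 and 292.3 after 300 µg/l and 354.6, 354.6 and 352 after 600 µg/l. Its 600 µg/l arrays lay just below the lowest sham array (-0.18, SE 0.13, adjusted p = 0.689). Lama3 and Lamb3 are laminin chains of epithelial basement membranes. Lama3 gave 0.01 (SE 0.21) and Lamb3 gave -0.11 (SE 0.12) at 600 µg/l, with overlapping groups, and Lamb3 gave -0.09 without the type B array of sham at 2 h. Lama4, Lama5, Lamb1 and Lamb2, chains of endothelial and general basement membranes, lay between -0.06 and -0.02 at 600 µg/l. Dimmer tested probe sets gave -0.08 for Lama4 and 0.05 for Lama5. Of 3 laminins with several tested probe sets, 2 had the same sign in all of them at 600 µg/l, and Lama5 was mixed.

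The laminin median at 600 µg/l was lowest at 6 h, where each time compares 1 smoke array with 1 sham array. At 6 h the 600 µg/l array lay below sham for 6 of 9 laminins with a median of -0.32, against 50.1% of all probe sets. At 2 h it was 4 of 9 with a median of 0.02, against 52.59%, and at 20 h 3 of 9 with a median of 0.06, against 51.08%. The 300 µg/l medians were 0.19, -0.07 and -0.03 at 2, 6 and 20 h. In the model with smoke, time and their interaction, no laminin was called for the smoke effect at 6 h minus that at 2 h (0% of all probe sets were called), and 3 of 9 had an unadjusted p under 0.05, against 6.27% of all. They were Lama4 (-0.54, SE 0.19, adjusted p = 0.743), Lama2 (-0.52, SE 0.22, adjusted p = 0.791) and Lamb2 (-0.49, SE 0.16, adjusted p = 0.705). The sham array at 6 h stood above the other 2 sham arrays for all 3 genes, as with 2024.7 for Lamb2 against 1547.1 and 1638. The residual spread of that model is the one between 300 and 600 µg/l and holds no variation of sham arrays. A dimmer Lama4 probe set on type B gave 0.10.

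Basement membrane partners of laminin and type IV collagen had 13 of 14 genes tested, of which 10 lay below sham at 600 µg/l and 11 at 300 µg/l (medians -0.15 and -0.13), with none called. Pxdn, peroxidasin, which cross-links type IV collagen, read 3339.4, 3194.5 and 3473.5 in sham, 2401.2, 2518.8 and 2864.4 after 300 µg/l and 2164.2, 2588.2 and 2771.5 after 600 µg/l. Its smoke arrays lay below all sham arrays, with a difference of -0.41 at 600 µg/l (SE 0.08, adjusted p = 0.0602). Hmcn1, hemicentin, gave -0.59 (SE 0.16, adjusted p = 0.185).

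Integrins also showed no call. Of 20 tested genes, 14 lay below sham at 600 µg/l with a median of -0.09 and 11 at 300 µg/l with a median of -0.02, and 1 of 20 had an unadjusted p under 0.05 at each exposure, against 10.3% and 5.53% of all probe sets. That gene was Itga6, the alpha subunit of laminin receptors of epithelium and endothelium. It read 1888.7, 1819.7 and 2214.1 in sham, 1641.9, 1562.6 and 1853.3 after 300 µg/l and 1326.6, 1470.8 and 1730.7 after 600 µg/l. The 600 µg/l arrays lay below all sham arrays, and at each time the order was sham, 300 and 600 µg/l. The differences were -0.38 at 600 µg/l (SE 0.10, adjusted p = 0.166) and -0.22 at 300 µg/l (SE 0.10, adjusted p = 0.892). The dimmer tested probe sets gave -0.18 and -0.29 at 600 µg/l and 0.09 and -0.15 at 300 µg/l. Without the type B array of sham at 2 h the difference was -0.36 at 600 µg/l (SE 0.13, adjusted p = 0.361) and -0.20 at 300 µg/l (SE 0.13, adjusted p = 0.886), where it no longer had an unadjusted p under 0.05.

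The other laminin-binding subunits differed from each other in sign. Itga7 read 431.8, 481.7 and 394.4 in sham and 377.3, 356.2 and 368.4 after 600 µg/l, without overlap (-0.22, SE 0.11, adjusted p = 0.523), and Itga3 gave 0.02 (SE 0.09). Itgb4, the partner of Itga6 in hemidesmosomes, gave 0.09 (SE 0.12). Itgb1, the beta subunit of most collagen and laminin receptors, read 4473.7, 4157.5 and 4155.8 in sham and 4330.5, 4315.5 and 4017.8 after 600 µg/l, a difference of -0.01 (95% interval -0.17 to 0.14). Itga1, the tested collagen-binding subunit, gave -0.10 (SE 0.13).

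The RGD-binding subunits Itga5, Itga8, Itgav and Itga2b and the beta subunits Itgb3, Itgb5 and Itgb6 lay between -0.23 and -0.05 at 600 µg/l, with adjusted p of at least 0.676. Itgb6 pairs with Itgav in the epithelial receptor that activates latent transforming growth factor beta. It read 1442.3, 1522.4 and 1817.6 in sham and 1316.3, 1499.2 and 1483.9 after 600 µg/l, overlapping groups with a difference of -0.14 (SE 0.10, adjusted p = 0.676). Without the type B array of sham at 2 h, Itgb6 gave -0.16, Itgb3 moved from -0.23 to -0.35 and Itgav from -0.06 to 0.04. A dimmer Itgav probe set gave 0.14 at 600 µg/l and 0.25 at 300 µg/l, and a dimmer Itga8 probe set gave -0.01 at 600 µg/l. Of 6 integrin-named genes with several tested probe sets, 5 had the same sign in all of them at 600 µg/l, and Itgav was mixed.

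The leukocyte subunits Itgb2 and Itgal lay above sham at both exposures. Beside them, the summed macrophage markers were higher, and so was the neutrophil sum, mostly through S100a9. NK cell markers were lower, and the 4 tested genes of all leukocytes divided into 2 above and 2 below sham at each exposure. The part of these cells in the integrin values was not tested. Itgb2, the beta subunit common to leukocyte integrins, read 4900.3, 4235 and 4293.7 in sham, 4951.3, 5309.3 and 5156.3 after 300 µg/l and 4400, 5397.3 and 5454.6 after 600 µg/l. All 300 µg/l arrays lay above sham and the 600 µg/l array at 2 h lay within it, with differences of 0.20 and 0.18 (SE 0.11, adjusted p = 0.965 and 0.647). Without the type B array of sham at 2 h these were 0.33 and 0.31 (adjusted p = 0.661 and 0.425). Itgal, an alpha partner of Itgb2 on leukocytes, gave 0.14 at 300 and 0.10 at 600 µg/l, and 0.21 and 0.17 without that array. All 6 tested T cell markers lay below sham at 600 µg/l. At 300 µg/l 4 lay below and 2 above, and none was called at either exposure. Itgb7, a beta subunit of lymphocytes, gave -0.22 (adjusted p = 0.593). Itgam, another alpha partner of Itgb2, found on macrophages and neutrophils, ranged from 13.7 to 142.9 over the 9 arrays and was not tested.

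**Figure D3:**
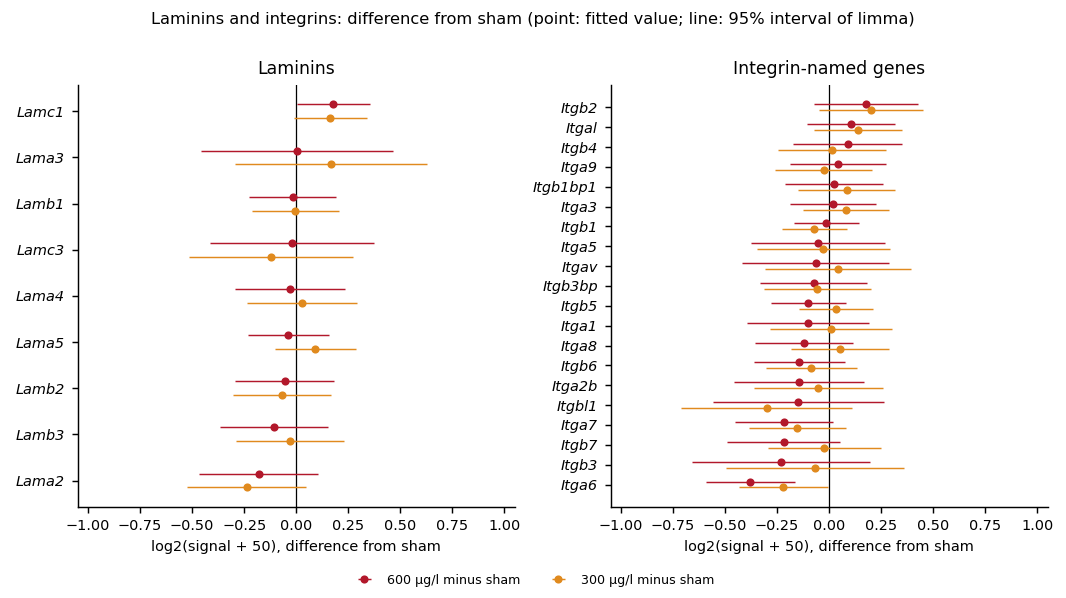
Fitted differences from sham (points) with 95% intervals (lines) for the 9 tested laminins and 20 tested integrin-named genes at 600 and 300 µg/l, on the log2(signal + 50) scale. Itga6 and Lamc1 are the genes whose 600 µg/l interval does not cross 0, and none had an adjusted p under 0.05.

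**Figure D4:**
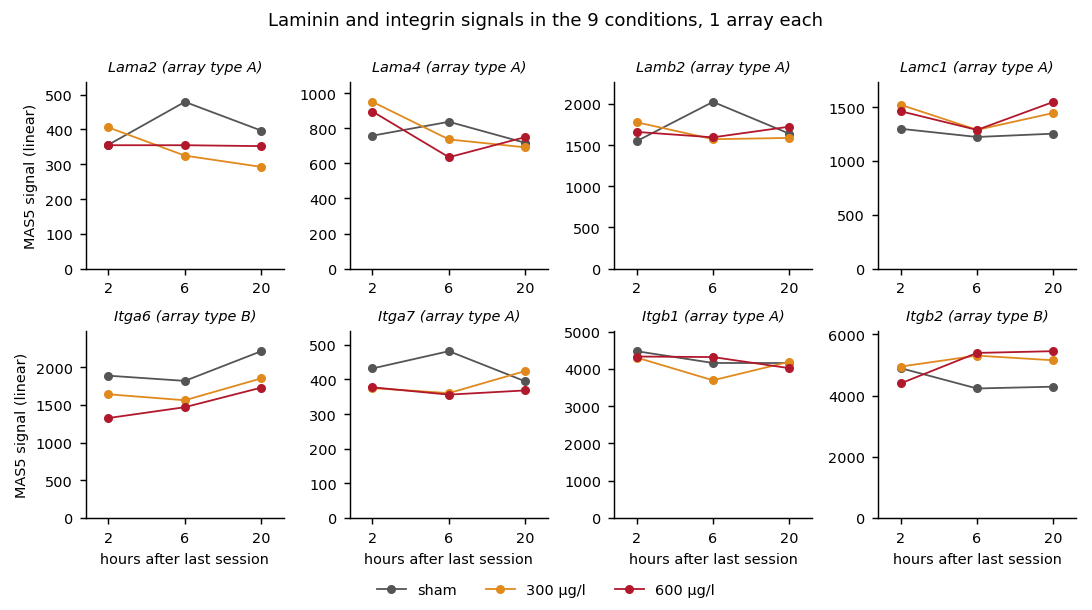
MAS5 signal (linear axis from 0) of 4 laminins and 4 integrins against hours after the last session, 1 point per array, for sham, 300 and 600 µg/l. The Itga6 arrays keep the order sham, 300 and 600 µg/l at each time, and the 6 h sham array stands above the other sham arrays for Lama2, Lama4 and Lamb2.

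Arrays at 600 µg/l lay below all sham arrays for 2 of 20 integrin-named genes (Itga6 and Itga7) and 1 of 9 laminins (Lama2), and above for none, against 7.42% and 6.98% of all probe sets. At 300 µg/l they lay above for 1 of these genes, Itgb2, and below for none, against 4.12% and 4.32%. Of 25 tested integrin adaptors and signalling genes, 16 lay below sham at 600 µg/l (median -0.04) and none was called. Tns3, tensin 3, which links integrins to actin, gave -0.20 (adjusted p = 0.302), and Fermt3, the kindlin of blood cells, gave 0.38 (adjusted p = 0.321).

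Recovery time was compared over the 3 exposures. No member was called for 6 h against 2 h (0.0153% of all probe sets), 20 h against 2 h (0.0509%) or 20 h against 6 h (0%). At an unadjusted p under 0.05, 3 of 28 collagens, 1 of 20 integrin-named genes and no laminin passed for 6 h against 2 h, against 10.8% of all probe sets. For 20 h against 2 h it was 3, 4 and 1, against 11.4%, and for 20 h against 6 h 1, 1 and none, against 4.49%. These shares were near or below those of all probe sets except for the integrin-named genes at 20 h against 2 h.

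Col4a6 gave one of the largest time differences among the members, 0.56 at 6 h (SE 0.16, adjusted p = 0.274) and 0.65 at 20 h (adjusted p = 0.181) against 2 h. Its 3 arrays at 2 h, 272.3 in sham, 194.6 after 300 µg/l and 297.1 after 600 µg/l, lay below all 6 later arrays, which ranged from 348.7 to 459.4. Col1a1 gave 0.35 at 6 h (adjusted p = 0.291) and 0.39 at 20 h (adjusted p = 0.207), and Col11a1 gave -0.60 at 6 h (adjusted p = 0.393). Of the integrins, Itga6 gave 0.26 and Itgal 0.27 at 20 h, and Itga9 gave -0.25 at both times. Dimmer tested probe sets at 20 h against 2 h gave 0.37 for Col4a6 and 0.14 for Col1a1. For Itga6 they gave -0.07 and 0.15, so its sign was mixed. Lamb3 gave 0.29 at 20 h (adjusted p = 0.384). Without the type B array of sham at 2 h, Col4a6 gave 0.55 (adjusted p = 0.593) and 0.63 (adjusted p = 0.466), Col11a1 -0.60, Itga6 0.28, Itgal 0.34, Itga9 -0.28 at both times and Lamb3 0.31.

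No collagen or integrin was called for a smoke effect that differed between times, at 6 h against 2 h or at 20 h against 2 h (0.0102% of all probe sets). At an unadjusted p under 0.05, 3 of 28 collagens and 2 of 20 integrin-named genes passed at 6 h, against 6.27% of all probe sets, and 1 of 28 and none of 20 at 20 h, against 3.45%. Col15a1 gave -0.88 at 6 h (SE 0.28, adjusted p = 0.693), where the sham array read 1472.3 against 806 and 903.7 in the others, and its type A probe set gave -0.40. Itga1 gave 0.62 (SE 0.21, adjusted p = 0.723), and its sham array at 6 h, 1349.5, stood below 1918.4 and 1908.1. Col8a1 gave -0.68 at 20 h (SE 0.27, adjusted p = 1). The 2 Col1a1 probe sets gave opposite signs for the 6 h difference, -0.31 and 0.66.

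By time, the collagen median lay below 0 in all 6 comparisons of a smoke array with the sham array of its time, from -0.24 (600 µg/l, 6 h) to -0.08 (600 µg/l, 20 h). The integrin median ran from -0.12 to 0.01 and the laminin median from -0.32 to 0.19, while that of all probe sets stayed between -0.01 and 0.00. The comparisons of a time share 1 sham array.

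**Figure D5:**
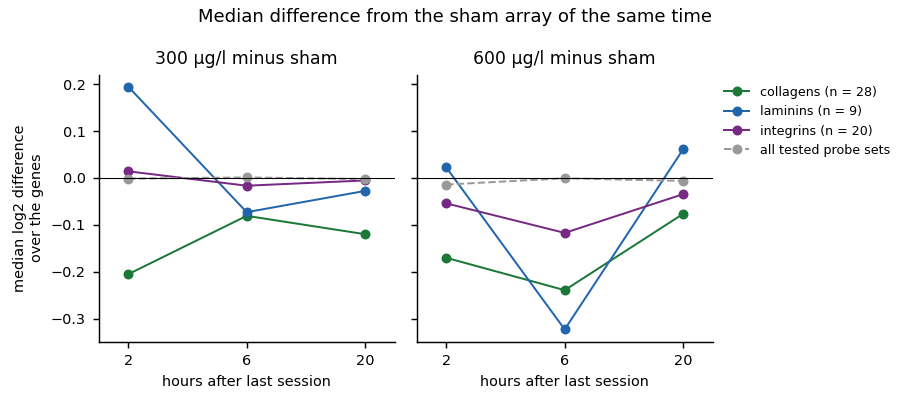
Median log2 difference between the smoke array and the sham array of the same time, over the tested collagens (n = 28), laminins (n = 9), integrins (n = 20) and all tested probe sets, against hours after the last session, for 300 and 600 µg/l. The collagen median is below 0 in each of the 6 comparisons, and the laminin median has the widest range.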

How the data were processed

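Biotin-labelled cRNA from lung total RNA was read on 2 Affymetrix array types, per the labels. The authors deposited linear signal intensity from MAS5 (submitters' processing notes, no version named); detection calls were not used here, and the authors' scaling was kept. Samples were grouped by title. Gene symbols came from a platform annotation table.

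Values were taken as log2(signal + 50). Tested were probe sets that reached the type's 40th percentile on 3 or more of the 9 arrays, without 57 control probe sets per type and the type B copies of 100 probe sets carried by both types (9901 on A, 9737 on B). Each type had its own limma fit (version 3.58.1, R 4.3.3; lmFit, then eBayes with trend), with two-sided tests and Benjamini-Hochberg adjustment over both types. One design had exposure plus recovery time as factors (4 residual degrees of freedom); the other had smoke of either level, time and smoke-by-time terms (3 residual degrees of freedom). The code was tested on simulated data. Figures were drawn with matplotlib 3.10.9.

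The members, the gene lists and the alternatives were chosen with earlier results of these data known. Named members were those called, up to 5 per family and direction with the smallest p for each smoke exposure against sham, up to 3 per family for other comparisons, and a set of well-known chains and subunits. Genes of the related lists were named where called, and otherwise up to 2 per list. Further genes named in the text were chosen after their values were seen. The alternatives were quantile and median scaling, pseudocounts of 12.5 and 200, a 60th percentile filter or none, eBayes without trend, p adjustment by type, no second factor, no 20 h conditions, no type B array of sham at 2 h, the mean over a gene's probe sets, and each condition left out.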

Additional observations from a re-analysis of the deposited data

How the results depend on the processing

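Of 21 alternative analyses, 9 left out 1 condition each. Their results were taken for the members only, so calls of marker and related genes, such as Loxl1, were not followed. The number of collagens called at 600 µg/l against sham fell from 1 to 0 with no filter and with no intensity trend, and ranged from 0 to 1 when conditions were left out; Col5a2 then had an adjusted p of 0.115 with no filter and 0.0903 with no trend. Adjustment within each type gave 1 collagen called by the F test in place of 0. No laminin or integrin was called in any comparison under any alternative run. The integrin median at 300 µg/l was 0.0096 with the 60th percentile filter and -0.055 to 0.0076 when conditions were left out, against -0.02, so it has no settled sign, and at 600 µg/l it was -0.04 without the 20 h conditions. The laminin median ran from -0.11 to 0.02 at 600 µg/l and from -0.08 to 0.07 at 300 µg/l when conditions were left out. The collagen median stayed between -0.21 and -0.13 at 600 µg/l and between -0.18 and -0.08 at 300 µg/l under all 21. Of 39 members named at 600 µg/l, 25 kept the sign of their difference under all alternatives and 14 did not; at 300 µg/l it was 20 of 37. The smoke effects by time could not be fitted without a sham array of the times compared or without the second factor, nor could 20 h comparisons without the 20 h conditions. No paired analysis was possible because each condition has 1 array and its number is the recovery time, which is already a factor. Dim members, such as Col4a4 and Col9a2, lay under the filter's level in several arrays, and background was not measured apart, which limits any statement on them.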
